A study of Homo sapiens with 24 samples.

Results

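FOXM1 and 9 other forkhead transcription factors (FOXA1, FOXA2, FOXO1, FOXO3, FOXO4, FOXK1, FOXK2, FOXP1 and FOXJ3) were followed through RNA-seq of A549 cells, a line long in culture that came from a lung adenocarcinoma. The 10 genes were taken by symbol from the 58721 genes counted in each of 24 libraries, and all 10 passed the filter on low counts in every comparison. Cells were transfected with siRNA against MYBL2 (siMYBL2, 4 libraries, 25 nM), siRNA against FOXM1 (siFOXM1, 4 libraries, 25 nM) or scrambled siRNA (siControl, 4 libraries), and these 4 controls served both single knockdowns. A separate experiment combined the siRNAs against both genes (siBoth, 3 libraries, 25 nM, with no statement of whether this was the dose of each) and had its own scrambled control (siControl_Both, 3 libraries). In another, cells received 20 µM of FDI-6 for 24 h (FDI6, 3 libraries) and were set against control_FDI6 (3 libraries), which was described as DMSO-treated in one place and as untreated in another. FDI-6, short for forkhead domain inhibitor 6, is a synthetic compound used to keep FOXM1 off its DNA sites. The siRNA sequences are not given in the sources used here, so effects of an siRNA on other transcripts cannot be told apart from those of its target. The methods of the study call the replicates biological, whether they differed in culture, passage or day is not given in the sources used here, and p-values measure the spread between these libraries.

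Forkhead factors share a winged-helix DNA-binding domain and bind similar sites, yet they act on different programs. FOXM1 rises towards mitosis and activates genes of the G2 and M phases, together with MYBL2 and the MuvB complex, at promoters with a cell cycle genes homology region (CHR). FOXA1 and FOXA2 are pioneer factors of endoderm-derived epithelia such as lung and liver. FOXO1, FOXO3 and FOXO4 activate genes of cell cycle arrest, stress resistance and metabolism, and AKT keeps them out of the nucleus by phosphorylation, so their transcript levels do not give their activity. FOXK1 and FOXK2 are widely expressed, recruit the SIN3A and BAP1 complexes and repress autophagy genes. FOXP1 is mainly a repressor, and FOXJ3 is a less studied activator.

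The libraries held 16487394 to 30140550 counted read pairs each (median 24208064.5), and FDI6 libraries (16487394 to 17741253) were shallower than every control_FDI6 library (18856286 to 21039750). All 10 genes averaged 100 counts or more per library. Levels are given as CPM, the count of a gene relative to the TMM-scaled library total, whereas fold changes come from a separate edgeR fit of each comparison. MYBL2 was at 4.15% of its control level with siMYBL2 and at 4.91% with siBoth. KRT8, KRT18 and KRT7, keratins of epithelial cells, were at or above 628 CPM in every library. The remaining epithelial markers were lower, with KRT19 at 37.7 to 349 CPM, CDH1 at 9.51 to 90.3 CPM and EPCAM at 1.67 to 37.5 CPM. COL1A1 (4.91 to 58.8 CPM) was the only one of 14 markers of blood, endothelium, stroma and erythroid cells above 5 CPM in any library, and CD3E had no count in any. Pairs that did not align made up 9.09 to 10.9% of siBoth libraries and 7.68 to 7.92% of siControl_Both libraries, against 1.73 to 3.03% elsewhere, and the part of this difference in the siBoth results was not tested. Replicate 4 stood apart in all 3 groups of the single knockdowns. In each of them it had the lowest FOXM1 and FOXK2 and the highest FOXA1, FOXA2 and FOXO4 of the 4 libraries.

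**Figure D1:**
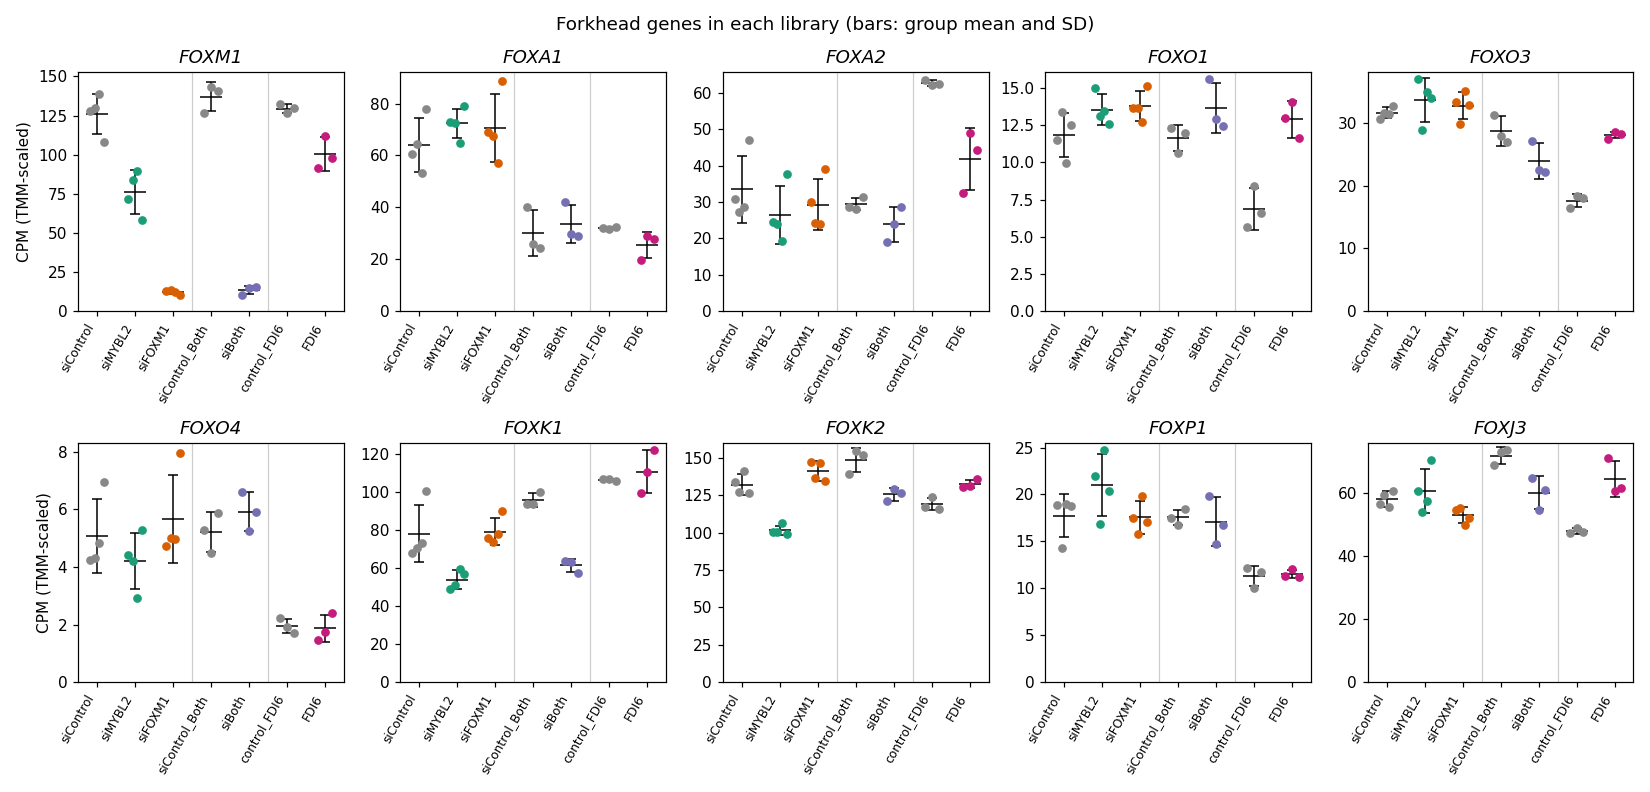
CPM of each forkhead gene (vertical axes, starting at 0) in each library, with 1 point per library and bars for the group mean and SD. The grey lines part the 3 experiments, and FOXM1 lies between 10.2 and 15 CPM in the 7 libraries that received its siRNA and at or above 58.1 CPM in the rest.

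Without the replicate number in the fit, FOXM1 was the only member that fell and passed the test in all 4 treatment comparisons. Its fall was about 10-fold where it was targeted and less elsewhere. FOXA2 was also lower in every same-numbered pair of the 4 comparisons. With the replicate number in the fit, FOXA2 passed in all 4 as well (edgeR). Its adjusted p was 0.000624 with siMYBL2, 0.00483 with siFOXM1, 0.0208 with siBoth and 0.00399 with FDI6. The FOXM1 gene lies on the minus strand of chromosome 12 (chr12:2857680-2877174, hg38). FOXM1 stood at 128, 129.8, 139 and 108 CPM in siControl and at 12.8, 13.2, 12.3 and 10.3 CPM in siFOXM1. Every siFOXM1 library was far below every control, and the mean was 9.63% of the control mean. In these bulk samples fewer cells of a type and less RNA per cell cannot be told apart. The log2 fold change was -3.38 ± 0.11 (SE, 4 libraries a group), a 10.4-fold fall (edgeR quasi-likelihood test, adjusted p = 2.34e-06).

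With siMYBL2, FOXM1 was at 71.9, 83.7, 89.8 and 58.1 CPM. These libraries did not overlap with siControl either, and FOXM1 fell 1.66-fold (log2 fold change -0.73 ± 0.14, adjusted p = 0.00754, edgeR), lower in 4 of 4 same-numbered pairs. The double knockdown brought FOXM1 from 126, 143 and 141 CPM in siControl_Both to 10.2, 14.5 and 15 CPM in siBoth. This was a 10.3-fold fall (log2 fold change -3.37 ± 0.15, adjusted p = 3.04e-05, edgeR). The levels in siBoth overlapped with those in siFOXM1, and the siBoth effect minus the siFOXM1 effect was 0.01 on the log2 scale with a 95% interval of -0.38 to 0.39 (adjusted p = 0.992, edgeR). Against the siMYBL2 effect, the siBoth effect on FOXM1 was lower by a log2 difference of -2.64 ± 0.22 (adjusted p = 7.48e-05, edgeR), and of all 17012 genes tested in that contrast 0.176% passed an adjusted p of 0.05. FOXM1 was the 1 member to do so. Of these treatments siBoth alone included siRNA against FOXM1, so the direction of this difference was built into the design.

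With FDI-6, FOXM1 transcripts were lower in every treated library, by less than 1.5-fold on average. The levels were 132, 126 and 129.6 CPM in control_FDI6 and 91.2, 112 and 98.1 CPM in FDI6. The groups did not overlap, and FOXM1 fell 1.29-fold (log2 fold change -0.37 ± 0.08, adjusted p = 0.004, edgeR), which passes the test but not the 1.5-fold limit. The FDI6 effect minus the siFOXM1 effect was 3.01 ± 0.14 on the log2 scale (adjusted p = 3.07e-08, edgeR), where FOXM1 was the siRNA target on the siFOXM1 side. In the order of group means, the 3 control groups did not differ beyond their spread, followed by FDI6, siMYBL2 and the pair of siBoth and siFOXM1, which also did not differ beyond their spread.

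RHNO1, which codes for a partner of the 9-1-1 checkpoint clamp, starts 916 bases inside the FOXM1 locus on the opposite strand, so the transcripts run head to head. It was at 51.9 to 59.5 CPM in siControl and at 52.4 to 60.8 CPM in siFOXM1, with a log2 fold change of 0.02 and a 95% interval of -0.14 to 0.17. RHNO1 did not pass the test in the other 3 comparisons either (log2 fold changes of -0.11 with siMYBL2, -0.06 with siBoth and -0.21 with FDI6, adjusted p = 0.376, 0.705 and 0.0554, edgeR). Its FDI6 libraries (55.3 to 64.5 CPM) nonetheless all lay below those of control_FDI6 (66.5 to 71.4 CPM). It was lower in 4 of 4 same-numbered pairs with siMYBL2 and in 2 of 3 with siBoth, and higher in 4 of 4 with siFOXM1. ITFG2, named after its values were seen, overlaps 15.9% of the FOXM1 exon bases from the other strand, and the strand setting of the counting is not given in the sources used here. Its log2 fold changes were between -0.27 and -0.11 in the 4 comparisons and none passed.

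Among known targets of FOXM1, those that passed the test in a knockdown were all lower, as FOXM1 was. Of 38 tested target genes, 26 fell and 0 rose with siMYBL2, 9 fell and 0 rose with siFOXM1, 29 fell and 0 rose with siBoth, and 18 fell and 3 rose with FDI6. Of all genes tested, 18.1%, 1.37%, 12.3% and 38.9% passed in the same order. The medians over the list were -0.59, -0.15, -0.99 and -0.19 on the log2 scale, beside 0.01, 0.00, 0.02 and -0.01 over all genes tested. Some of these genes, such as CENPA, CDKN3 and CCNF, were also named by the study from these libraries, so the direction of the list is not independent evidence. Among targets averaging 100 counts or more, CDKN3, a phosphatase of cyclin-dependent kinases, fell most with siFOXM1 (log2 fold change -1.52 ± 0.07). CKS1B, a kinase subunit, fell most with siMYBL2 (-1.50 ± 0.14), and KIF20A, a cytokinesis kinesin, fell most with siBoth (-2.21 ± 0.14). CCNF, a mitotic F-box protein, fell in all 3 knockdowns (-1.26 ± 0.16, -0.85 ± 0.09 and -1.99 ± 0.12 in the order siMYBL2, siFOXM1, siBoth). The largest fall with FDI6 was that of BIRC5, the apoptosis inhibitor survivin (-0.62 ± 0.06), followed by CENPA, the centromeric histone (-0.60 ± 0.10). The 3 targets that rose with FDI6, here and in the lists that follow named after their values were seen where a count was 5 or fewer, were KIF20B (0.38), ASPM (0.33) and ECT2 (0.30), which act on the mitotic spindle and in cytokinesis.

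Of 24 genes that act on FOXM1, 8 fell with siMYBL2, 3 with siFOXM1 and 8 with siBoth, with 0 rising in each, and 7 fell and 5 rose with FDI6. MYBL2 is on this list, so the 8 with siMYBL2 and the 8 with siBoth include the target of the siRNA itself (-4.58 ± 0.20 and -4.35 ± 0.18). The shares of all genes tested that passed were 18.1%, 1.37%, 12.3% and 38.9% in this order. The cyclin CCNB1 fell in all 4 comparisons (log2 fold changes of -0.77 ± 0.11, -0.68 ± 0.09, -1.22 ± 0.10 and -0.38 ± 0.07). PLK1, a kinase that activates FOXM1, fell with siMYBL2 (-0.71 ± 0.13), while the kinase CDK1 (-0.69 ± 0.05) and the cyclin CCNA2 (-0.61 ± 0.10) fell with siFOXM1. CCND1, a G1 cyclin, rose with FDI6 (0.32 ± 0.05). So did the kinase CDK6 (0.50), the MuvB subunit LIN54 (0.56), the retinoblastoma gene RB1 (0.57) and the Hippo coactivator YAP1 (0.32). Several of these regulators are also in the target list. The study named CCNB1, CDK1 and CCNA2 from these libraries too, so their falls are not independent evidence.

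How many of the forkhead genes passed in a knockdown depended on whether the replicate number entered the fit. Without it, of the 10 members, 3 passed an adjusted p of 0.05 with siMYBL2, 1 with siFOXM1, 2 with siBoth and 5 with FDI6, whereas 18.1%, 1.37%, 12.3% and 38.9% of all genes tested passed in the same comparisons. With a fold change over 1.5 as well, here named a call, the members numbered 1, 1, 2 and 3, beside 7.9%, 0.667%, 6.44% and 13.8% of all genes. Under either rule, the 1 member with siFOXM1 and 1 of the 2 with siBoth was FOXM1, the target of the siRNA itself. These shares are read as a description, since the 10 genes were picked by name. Libraries of the same replicate number moved in common in the knockdowns, so the fit was repeated with the replicate number as a block. Then 6 members, FOXM1 among them, passed in each of the 3 knockdowns (46.7%, 26.3% and 34.8% of all genes). The genes added by the block are named with their values below.

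**Figure D2:**
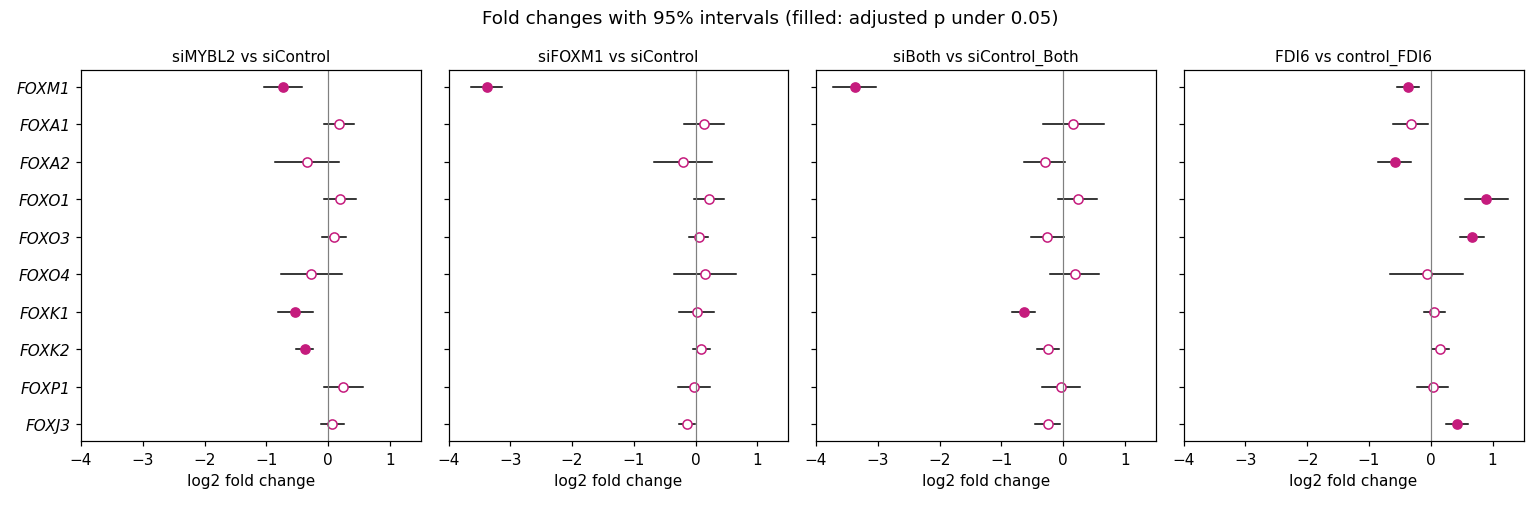
Log2 fold change of each forkhead gene (horizontal axes) in the 4 treatment comparisons, with the 95% interval from edgeR as a line and a filled point where the adjusted p was under 0.05. FOXM1 is the 1 gene filled in all 4 panels, FOXK1 is filled with siMYBL2 and siBoth, and FOXO1 and FOXO3 lie to the right of 0 with FDI6.

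The FOXK pair was lower wherever MYBL2 was knocked down and close to its control where FOXM1 alone was. FOXK1 (plus strand, chr7:4682295-4771442, hg38) and FOXK2 (plus strand, chr17:82519713-82644662, hg38) have 1 start each in RefSeq. The 250 bases before each start are shown because the genes moved together with siMYBL2, with the CCAAT box in capitals where it occurs (CCAAT or, on the other strand, ATTGG).
FOXK1, chr7:4682045-4682294: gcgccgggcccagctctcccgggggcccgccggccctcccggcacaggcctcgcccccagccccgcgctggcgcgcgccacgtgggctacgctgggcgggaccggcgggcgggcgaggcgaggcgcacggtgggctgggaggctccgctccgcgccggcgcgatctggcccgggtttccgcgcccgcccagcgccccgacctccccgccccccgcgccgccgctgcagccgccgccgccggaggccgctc
FOXK2, chr17:82519482-82519731: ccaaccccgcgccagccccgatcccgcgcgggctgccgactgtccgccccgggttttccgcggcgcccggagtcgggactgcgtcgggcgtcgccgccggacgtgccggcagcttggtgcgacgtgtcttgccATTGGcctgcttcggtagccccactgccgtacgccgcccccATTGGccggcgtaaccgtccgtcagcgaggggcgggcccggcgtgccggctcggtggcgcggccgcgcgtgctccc
FOXK2 held 2 CCAAT boxes, starting 117 and 76 bases before its start, and FOXK1 held 0. The CCAAT box occurred in 32% of the 35116 windows of this length in the RefSeq table (GRCh38.p14). Neither window held a CHR element (TTTGAA or TTCGAA, both strands, found in 14.3% of windows) or a forkhead core (TAAACA, both strands, found in 11% of windows).

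FOXK1 was at 68.3, 70.6, 73.3 and 100.5 CPM in siControl, at 48.8, 50.9, 59.6 and 56.7 CPM in siMYBL2 and at 75.8, 73.8, 77.8 and 89.9 CPM in siFOXM1. All siMYBL2 libraries lay below all others of that experiment, and replicate 4 was the highest in siControl and in siFOXM1. FOXK1 fell 1.44-fold with siMYBL2 (log2 fold change -0.53 ± 0.13, adjusted p = 0.0207, edgeR), and its log2 fold change with siFOXM1 was 0.02, with a 95% interval of -0.26 to 0.30. Without siMYBL2 replicate 1 the siMYBL2 change no longer passed (-0.49, adjusted p = 0.0655), and without replicate 4 of both groups it did (-0.42, adjusted p = 0.0122). In the double knockdown FOXK1 went from 93.8, 94 and 100.04 CPM in siControl_Both to 64, 63.1 and 57.6 CPM in siBoth. The groups did not overlap, and the 1.56-fold fall was called (-0.64 ± 0.08, adjusted p = 0.00283, edgeR).

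FOXK2 showed the same order with a smaller change. It was at 134, 127, 141 and 126 CPM in siControl and at 100.2, 100.5, 106 and 98.9 CPM in siMYBL2, against 147, 137, 146 and 135 CPM in siFOXM1. All siMYBL2 libraries were again below all others, and FOXK2 fell 1.3-fold (log2 fold change -0.38 ± 0.06, adjusted p = 0.00373, edgeR). With siFOXM1 its log2 fold change was 0.09 ± 0.06 (adjusted p = 0.605, edgeR). The block brought it past the threshold (adjusted p = 0.0351), and correcting GC content and gene length in the same fit took it back (0.0655, adjusted p = 0.115). In siBoth it was at 121, 129 and 127 CPM, below the 139, 155 and 152 CPM of siControl_Both, with a log2 fold change of -0.24 ± 0.08 that missed the threshold (adjusted p = 0.0829) and passed with the block (adjusted p = 0.0101) or with that correction alone (-0.32, adjusted p = 0.0391). Transcripts from the other strand overlap its exons, the longest stretch being 11.9% of the exon bases.

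Set directly against each other, siMYBL2 and siFOXM1 differed in FOXK1 by -0.55 ± 0.09 (adjusted p = 0.00232) and in FOXK2 by -0.47 ± 0.06 (adjusted p = 0.000689) on the log2 scale (edgeR). With FOXM1, the siRNA target on the siFOXM1 side (2.65 ± 0.15, adjusted p = 1.72e-05), these were the 3 members that passed, while 23.2% of all genes did. With the replicate block FOXO4 (-0.42), FOXP1 (0.26) and FOXJ3 (0.20) passed too, and 48.9% of all genes. The siBoth effect minus the siFOXM1 effect was -0.66 ± 0.16 for FOXK1 (adjusted p = 0.0357, edgeR), the 1 member that passed in a contrast where 4.38% of genes did. For FOXK2 it was -0.34 ± 0.09 (adjusted p = 0.0544, and 0.000568 with the block, under which FOXO3 passed too at -0.31). The FOXK2 difference passed as well with DESeq2 (-0.34, adjusted p = 0.0119). In edgeR it also did so without siControl replicate 3 (adjusted p = 0.0348) or siControl_Both replicate 1 (0.0427). The FOXK1 difference lost its call in 12 of the 14 fits that left out 1 library (adjusted p between 0.00083 and 0.085 over the 14, and 0.0477 without siFOXM1 replicate 2 and 0.00083 without siControl replicate 4, where it held). Against the siMYBL2 effect, the siBoth effect differed by -0.11 for FOXK1 (95% interval -0.47 to 0.25) and by 0.13 for FOXK2 (95% interval -0.06 to 0.33), and neither passed. FDI6 left FOXK1 at 99.7 to 122 CPM against 106 to 107 CPM in its control, and FOXK2 at 131 to 136 CPM against 116 to 124 CPM. The FOXK2 groups did not overlap, and its log2 fold change of 0.15 ± 0.06 missed the threshold (adjusted p = 0.0793) but passed after correction for GC content and length (0.22, adjusted p = 0.00537) and without FDI6 replicate 1 (0.17, adjusted p = 0.0149).

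Of 16 tested partners of the FOXK factors, 4 fell and 0 rose with siMYBL2, none passed with siFOXM1, 4 fell and 0 rose with siBoth, and 3 fell and 4 rose with FDI6. Of all genes tested, 18.1%, 1.37%, 12.3% and 38.9% passed in the same order. DVL2, a Wnt signal transducer that FOXK factors carry into the nucleus, fell with siMYBL2 (log2 fold change -0.71 ± 0.08). HCFC1, a chromatin adaptor, fell with siBoth (-0.38 ± 0.08), where OGT, a glycosyltransferase of the BAP1 complex, had 0.17 ± 0.12 (adjusted p = 0.382). With FDI6, OGT rose (0.73 ± 0.07), and so did ASXL2, another subunit of that complex (0.89 ± 0.08). The medians over the list were -0.11, 0.00, -0.18 and -0.02 on the log2 scale. HCFC1 (-0.42), the corepressor scaffold SIN3A (-0.51) and ASXL1 (-0.26) also fell with siMYBL2, and SIN3A (-0.53), ASXL2 (-0.41) and ASXL1 (-0.30) with siBoth. The further changes with FDI6 were falls of SAP30 (-0.45), BAP1 (-0.28) and HDAC1 (-0.26) and rises of KDM1B (0.58) and RCOR1 (0.46), which act in histone deacetylation, deubiquitination or demethylation.

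FOXO1 and FOXO3 rose with FDI-6, and no change of FOXO4 was detectable. FOXO1 (minus strand, chr13:40555667-40666641, hg38) and FOXO3 (plus strand, chr6:108559835-108684774, hg38) are shown by the 250 bases before their first RefSeq start, as the pair that moved together with FDI-6, and capitals again mark the CCAAT box.
FOXO1, chr13:40666642-40666891: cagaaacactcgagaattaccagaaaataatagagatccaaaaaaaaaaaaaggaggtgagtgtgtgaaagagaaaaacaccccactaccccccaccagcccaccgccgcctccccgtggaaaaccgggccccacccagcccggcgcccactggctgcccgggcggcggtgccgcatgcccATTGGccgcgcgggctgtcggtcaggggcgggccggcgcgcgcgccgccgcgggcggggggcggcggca
FOXO3, chr6:108559575-108559824: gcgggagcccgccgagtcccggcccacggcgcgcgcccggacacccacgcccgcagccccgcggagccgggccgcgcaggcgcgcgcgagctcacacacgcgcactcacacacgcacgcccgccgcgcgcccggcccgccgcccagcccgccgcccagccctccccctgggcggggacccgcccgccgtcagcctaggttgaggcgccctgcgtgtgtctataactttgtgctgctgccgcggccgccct
FOXO1 held 1 CCAAT box, starting 69 bases before its start, and FOXO3 held 0. Neither window held a CHR element or a forkhead core. FOXO3 has further RefSeq starts, and the window of start 2 (chr6:108560667-108560916) held 1 forkhead core, 233 bases before that start. The table had entries for 8 of the 10 members, and FOXM1 and FOXA2 were not among them.

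FOXO1 was at 5.64, 8.39 and 6.57 CPM in control_FDI6 and at 13, 14.1 and 11.6 CPM in FDI6. All treated libraries were above all controls, a rise of 1.87-fold (log2 fold change 0.90 ± 0.16, adjusted p = 0.000977, edgeR). FOXO3 was at 16.5, 18.4 and 18 CPM in control_FDI6 and at 27.5, 28.6 and 28.2 CPM in FDI6, again without overlap. It rose 1.59-fold (0.67 ± 0.09, adjusted p = 0.000185, edgeR). After correction for GC content and length, the changes were 0.81 and 0.60 and both still passed. FOXO4 was the least abundant of the 3, at 1.72 to 2.22 CPM in control_FDI6 and 1.45 to 2.39 CPM in FDI6 (-0.07, 95% interval -0.65 to 0.52), with as few as 24 counts in a library.

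The level reached with FDI6 was near that of the scrambled siRNA controls. FOXO1 had a mean of 12.9 CPM in FDI6, beside 11.8 CPM in siControl and 11.7 CPM in siControl_Both, and 6.86 CPM in control_FDI6. FOXO3 had a mean of 28.1 CPM in FDI6, beside 31.6 CPM in siControl, 28.8 CPM in siControl_Both and 17.6 CPM in control_FDI6. Thus control_FDI6 stood below every other group for FOXO1 and FOXO3, with no overlap of libraries. Transfection and the experiment cannot be told apart in these control groups.

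None of the 3 FOXO genes passed the test in a knockdown. FOXO1 was at 9.93 to 13.4 CPM in siControl, 12.6 to 15 CPM in siMYBL2 and 12.7 to 15.2 CPM in siFOXM1, and at 10.7 to 12.3 CPM in siControl_Both and 12.5 to 15.6 CPM in siBoth. Its log2 fold changes of 0.20, 0.22 and 0.23 had adjusted p = 0.268, 0.459 and 0.292 (edgeR), and that with siFOXM1 passed with the block (adjusted p = 0.0266). FOXO3 had log2 fold changes of 0.09, 0.05 and -0.26 in the order siMYBL2, siFOXM1, siBoth, and the siBoth value passed with the block (adjusted p = 0.0277). FOXO4 had -0.27, 0.15 and 0.19. The FDI6 effect minus the siFOXM1 effect was 0.68 ± 0.20 for FOXO1 (adjusted p = 0.0247) and 0.62 ± 0.10 for FOXO3 (adjusted p = 0.00102, edgeR). In this contrast 4 members passed, FOXM1 as the siRNA target among them, beside 20.9% of all genes. With the block FOXA1 (-0.47, adjusted p = 0.0046) and FOXA2 (-0.41, adjusted p = 0.0177) passed too. The FOXO1 difference lost its call without siControl replicate 2 (adjusted p = 0.0508), FDI6 replicate 2 (0.0625), control_FDI6 replicate 1 (0.0768) or control_FDI6 replicate 3 (0.0586).

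FOXO3B on chromosome 17 is a near copy of FOXO3, and how pairs that align to both were counted is not given in the sources used here, so both genes are uncertain. It was at 3.23 to 3.57 CPM in control_FDI6 and 5.27 to 6.46 CPM in FDI6 and rose too (log2 fold change 0.82 ± 0.17, adjusted p = 0.00249, edgeR). A long noncoding RNA on the same strand shares 22.7% of the FOXO1 exon bases in the annotation used here.

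Of the known targets of FOXO factors, 35 could be tested with FDI6, of which 18 rose and 5 fell, and the median log2 fold change was 0.32 beside -0.01 over all genes. The liver-type insulin response gene IGFBP1 (1.38 ± 0.11), the zinc finger factor KLF6 (1.33 ± 0.08) and RICTOR, a subunit of mTORC2 (1.29 ± 0.09), were the largest. The same list gave 3 falls and 2 rises with siMYBL2, no change that passed with siFOXM1 and 4 falls and 4 rises with siBoth, of 36 tested. Among all genes tested, 38.9% passed with FDI6, and 18.1%, 1.37% and 12.3% in these knockdowns. KLF2, an endothelial and lymphoid zinc finger factor, fell with siMYBL2 (-1.33 ± 0.31) and with siBoth (-1.23 ± 0.26), as did KLF6 (-0.66 ± 0.18) and PINK1, a mitophagy kinase (-0.66 ± 0.13), with siMYBL2. With siBoth the apoptosis gene BBC3 (0.85 ± 0.21) and the stress gene SESN2 (0.77 ± 0.18) rose, both of which also respond to p53 or other stress. With siFOXM1 the abundant CCND1 had -0.61 ± 0.16 (adjusted p = 0.112). The remaining changes were rises of SESN3 (0.61) and SESN2 (0.51) with siMYBL2, and with siBoth rises of the kinase inhibitor CDKN1A (0.74) and of catalase, CAT (0.34), and falls of KLF6 (-0.69), MXI1 (-0.66) and the insulin receptor INSR (-0.64). Those that fell with FDI6 were ERBB3 (-0.65), GADD45B (-0.31), CDKN1B (-0.29), PRDX3 (-0.23) and CAT (-0.23).

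Of 33 regulators of FOXO factors, 16 rose and 3 fell with FDI6. MDM2, a ubiquitin ligase (0.95 ± 0.08), PIK3CA, the catalytic subunit of PI3K (0.75 ± 0.11), and PRKAA1, an AMPK subunit (0.69 ± 0.11), led these. With siMYBL2, 7 fell and 2 rose, with siFOXM1 1 fell, and with siBoth 6 fell and 2 rose. Of all genes tested, 38.9% passed with FDI6, and 18.1%, 1.37% and 12.3% in these knockdowns. YWHAG, one of the 14-3-3 proteins that hold phosphorylated FOXO in the cytoplasm, fell with siMYBL2 (-1.22 ± 0.09) and with siBoth (-1.25 ± 0.08). The kinase SGK1 fell with siMYBL2 (-0.998 ± 0.17), while with siBoth the PI3K subunit PIK3R1 fell (-0.64 ± 0.14) and the deacetylase SIRT2 rose (0.61 ± 0.08). With siFOXM1 the abundant YWHAZ had -0.13 ± 0.06 (adjusted p = 0.412). The 1 regulator that fell with siFOXM1 was PIK3R1 (-0.44). SGK2 (0.53) and SIRT2 (0.48) rose with siMYBL2 and the stress kinase MAPK8 (0.32) with siBoth, while MAPK3 (-0.46), AKT2 (-0.31) and YWHAE (-0.20) fell with FDI6.

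**Figure D3:**
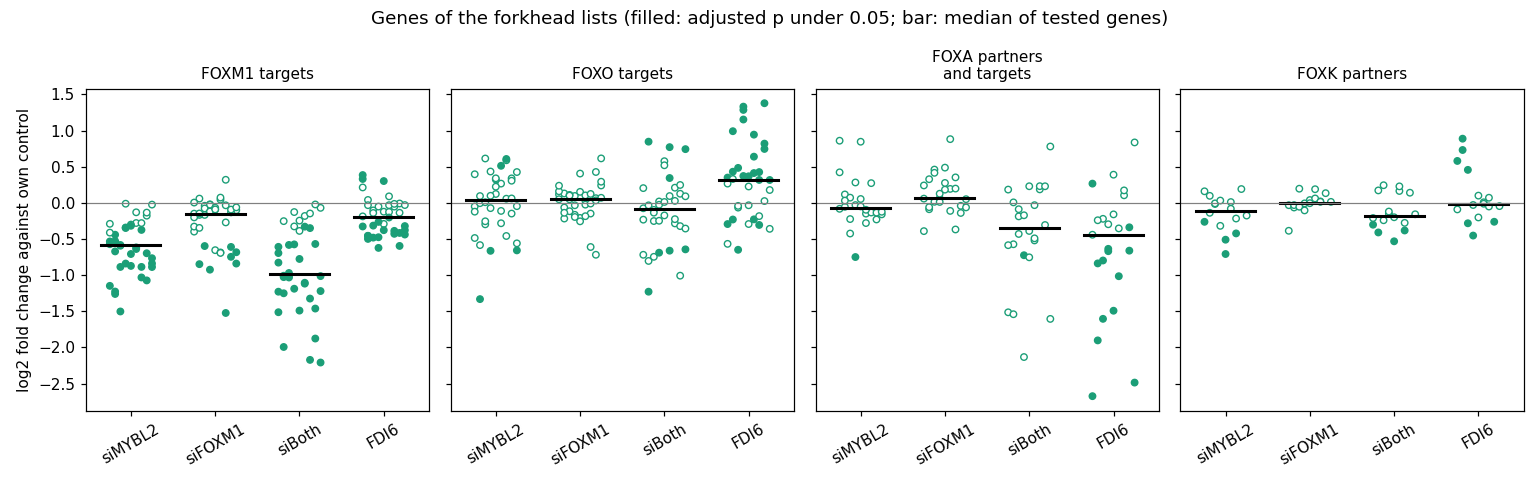
Log2 fold change against the own control (vertical axis) of the tested genes of 4 lists, 1 point per gene, filled where the adjusted p was under 0.05, with a bar at the median. The FOXM1 targets have their lowest median with siBoth (-0.99), and the FOXO targets lie higher with FDI6 (median 0.32) than in the knockdowns.

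FOXA2 fell with FDI-6, where FOXA1 was lower without passing the test except in some alternative fits. In the knockdowns FOXA2 passed only with the replicate block or without replicate 4 of both groups. FOXA1 passed there only with the block, for siMYBL2 and siFOXM1. FOXA2 (minus strand, chr20:22580998-22585455, hg38) was at 63.6, 62.2 and 62.4 CPM in control_FDI6 and at 32.4, 49 and 44.2 CPM in FDI6. All treated libraries were lower, and the 1.5-fold fall lay at the limit for a call (log2 fold change -0.5850 ± 0.1239, adjusted p = 0.00329, edgeR). After correction for GC content and length it was -0.26 and still passed the test (adjusted p = 0.0126), but was under 1.5-fold. The fall was also under 1.5-fold without FDI6 replicate 1 (-0.43) or control_FDI6 replicate 1 (-0.58). FOXA1 was at 32.1, 31.5 and 32.2 CPM in control_FDI6 and at 19.6, 29 and 27.9 CPM in FDI6. These libraries did not overlap either, yet the change missed the threshold (-0.32 ± 0.13, adjusted p = 0.0658, edgeR), also with DESeq2 (0.0552) and with the block alone (0.0579). It passed with the correction (0.0375, and 0.0249 with the block added), with upper-quartile scaling (0.037) and with no low-count filter (0.0157). The same held without FDI6 replicate 2 (0.0422) and without FDI6 replicate 3 (0.0411). The 6 epithelial markers summed to 6021 to 6943 CPM in FDI6 and to 9805 to 10583 CPM in control_FDI6, with 5 falling and 1 rising, and their part in the FOXA values was not tested. CDH1, which codes for E-cadherin, fell most of these (-1.49), and KRT19 was the 1 that rose (0.35). The 14 markers of other cell types summed to 6.24 to 10.6 CPM in FDI6 and to 18.8 to 19.7 CPM in control_FDI6, mostly COL1A1 (-1.28).

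In the single knockdowns FOXA2 was at 30.8, 27.3, 28.7 and 47.2 CPM in siControl, at 24.4, 23.9, 19.2 and 37.8 CPM in siMYBL2 and at 29.9, 24.3, 23.9 and 39 CPM in siFOXM1. The groups overlapped, and replicate 4 was the highest in each. FOXA2 was lower in 4 of 4 same-numbered pairs with siMYBL2 (log2 fold change -0.34, adjusted p = 0.335, 0.000624 with the block and 0.0399 without replicate 4 of both groups) and in 4 of 4 with siFOXM1 (-0.20, adjusted p = 0.791, and 0.00483 with the block). With siBoth it was lower in 3 of 3 pairs (-0.30, adjusted p = 0.21, and 0.0208 with the block), and the GC and length correction gave -0.45 (adjusted p = 0.0721). FOXA1 was higher in every same-numbered pair of the knockdowns (0.18, 0.14 and 0.16 in the order siMYBL2, siFOXM1, siBoth, adjusted p = 0.302, 0.804 and 0.656), and passed with the block for siMYBL2 (adjusted p = 0.0103) and siFOXM1 (adjusted p = 0.0136). Between experiments FOXA1 differed more than with any treatment, with a mean of 64.1 CPM in siControl beside 30.1 CPM in siControl_Both and 31.9 CPM in control_FDI6. FOXA2 had its highest level in control_FDI6, at a mean of 62.7 CPM beside 33.5 and 29.4 CPM in the scrambled controls.

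Of 23 partners and targets of the FOXA factors tested with FDI6, 12 fell and 1 rose, with a median log2 fold change of -0.44. The fibrinogen chains FGB (-2.67 ± 0.16), FGA (-2.49 ± 0.12) and FGG (-1.90 ± 0.15) fell most. Of the list, 1 of 24 tested genes passed with siMYBL2 and 1 of 24 with siBoth, both falls, and none of 25 passed with siFOXM1, where KRT7 had 0.05 ± 0.25 and AGR2, a secretory chaperone, had -0.09 ± 0.51. Of all genes tested, 38.9% passed with FDI6, 18.1% with siMYBL2, 12.3% with siBoth and 1.37% with siFOXM1. The medians of the list in the knockdowns were -0.07, 0.06 and -0.35 in the order siMYBL2, siFOXM1, siBoth. The 1 gene that rose with FDI6 was ABCA3 (0.27), a lipid transporter of alveolar type II cells.

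FOXJ3 rose with FDI-6 and FOXP1 did not change detectably there. FOXJ3 was at 47.4, 48.9 and 47.6 CPM in control_FDI6 and at 71, 60.7 and 61.6 CPM in FDI6, with no overlap and a rise of 1.34-fold (log2 fold change 0.42 ± 0.08, adjusted p = 0.00173, edgeR). After correction for GC content and length the change was 0.22 (adjusted p = 0.00948). With siFOXM1 (-0.14, adjusted p = 0.336) and siBoth (-0.25, adjusted p = 0.0996) FOXJ3 passed only with the block (adjusted p = 0.0121 and 0.0181). The siBoth value did not pass with the block and the GC and length correction together (-0.14, adjusted p = 0.0916). With siFOXM1 it was at 49.7 to 55.3 CPM, just below the 55.5 to 60.7 CPM of siControl, and the FDI6 effect minus the siFOXM1 effect was 0.56 ± 0.10 (adjusted p = 0.00118, edgeR). FOXP1 was at 10.1 to 12.1 CPM in control_FDI6 and 11.2 to 12 CPM in FDI6 (0.03, 95% interval -0.23 to 0.29), and at 14.3 to 24.7 CPM in all siRNA libraries. With siMYBL2 it was higher in 4 of 4 pairs (0.25 ± 0.14, adjusted p = 0.258, and 0.00941 with the block).

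Of 11 partners of FOXP1, 2 fell and 0 rose with siMYBL2, none passed with siFOXM1, 3 fell and 0 rose with siBoth, and 4 fell and 4 rose with FDI6. Among all genes tested, the shares that passed were 18.1%, 1.37%, 12.3% and 38.9% in the same order. The NuRD subunit MTA1 fell with siMYBL2 (-1.01 ± 0.10) and again with siBoth (-0.70 ± 0.13). RUNX1, a factor best known from blood formation, fell with siBoth (-0.62 ± 0.14) and rose with FDI6 (1.23 ± 0.10). With FDI6, further changes included falls of CHD4 (-0.45), CTBP1 (-0.39) and HDAC1 (-0.26) and rises of NCOR1 (0.46), CTBP2 (0.27) and GATAD2B (0.25).

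The other forkhead genes were mostly silent or low. Of 39 listed, 1 had no count in any library, 11 averaged 100 counts or more, and 20 were tested in at least 1 treatment comparison. Of these, 2 fell and 2 rose with siMYBL2 (20 tested), and none passed with siFOXM1 (18 tested). With siBoth 3 fell (15 tested), and with FDI6 2 fell and 6 rose (18 tested). The shares of all genes tested that passed were 18.1%, 1.37%, 12.3% and 38.9% in this order. FOXF2, a mesenchymal factor, was at 8.45 to 13.8 CPM in siControl and at 4.03 to 6.98 CPM in siMYBL2 and fell (log2 fold change -1.09 ± 0.21, adjusted p = 0.00755, edgeR). It fell with siBoth as well (-0.67 ± 0.16, adjusted p = 0.0338). FOXJ2 had a mean of 40.1 CPM in siControl and 29.1 CPM in siMYBL2. With siMYBL2 it passed below 1.5-fold (-0.46 ± 0.07), as FOXK1 and FOXK2 did there. With siBoth it passed below 1.5-fold too (-0.37 ± 0.09). The third that fell with siBoth was FOXN3 (-0.55 ± 0.13), a repressor, which rose with FDI6 (0.55 ± 0.09).

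FOXJ1, the master factor of motile cilia, moved in opposite directions at very low levels. It was at 0.211 to 0.731 CPM in siControl and 1.12 to 3.46 CPM in siMYBL2 and rose (2.23 ± 0.47, adjusted p = 0.0121, edgeR). With FDI6 it went from 1.06 to 1.51 CPM in the control to 0 to 0.334 CPM, a fall of which 6 was the highest count in a treated library (-2.61 ± 0.57, adjusted p = 0.00382, edgeR). FOXO6 rose with siMYBL2 from a mean of 1.43 to 2.42 CPM (0.76 ± 0.23, adjusted p = 0.0489, edgeR). With FDI6, FOXA3, a liver-type factor of the FOXA group, fell (-1.003 ± 0.17). FOXC2, a mesenchymal and lymphatic factor at a mean of 1.76 CPM in FDI6, rose (2.13 ± 0.46), and so did FOXN2 (0.79 ± 0.11), FOXQ1 (0.96 ± 0.25) and FOXL1 (0.96 ± 0.29). TTC6, which overlaps FOXA1 on the opposite strand, passed in no treatment comparison, with log2 fold changes from -0.16 to 0.38.

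Levels of different genes were compared per exon length. FOXM1 led in each control group, at 25.6 ± 2.64 CPM per kb of exon in siControl (SD, n = 4), 27.8 ± 1.86 in siControl_Both (n = 3) and 26.3 ± 0.592 in control_FDI6 (n = 3). FOXA1 (14.5 ± 2.34), FOXK2 (13.2 ± 0.698) and FOXA2 (12.3 ± 3.40) followed in siControl and did not differ beyond their spread. FOXA2 was second in control_FDI6 (23.1 ± 0.282), where FOXA1 stood at 7.24 ± 0.0905. FOXJ3, FOXK1, FOXO3, FOXO1, FOXO4 and FOXP1 came next in siControl, from 8.42 ± 0.355 down to 0.541 ± 0.0695 CPM per kb. The order of FOXO3, FOXO1, FOXO4 and FOXP1 was the same in all 3 control groups. For FOXP1 the annotated exons sum to 32800 bases over all its transcripts, which lowers its value per kb.

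**Figure D4:**
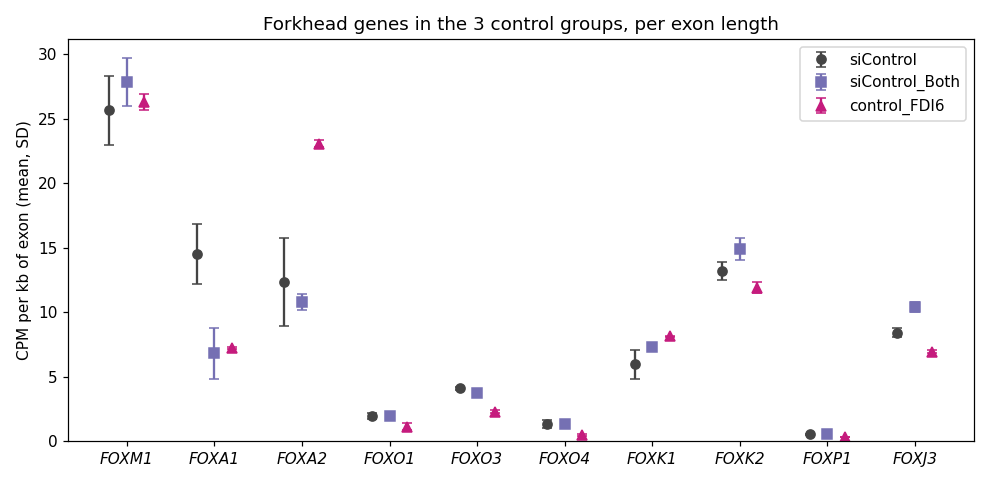
CPM per kb of annotated exon (vertical axis, mean and SD) of the 10 forkhead genes in the 3 control groups. FOXM1 is the highest in each, at 25.6 to 27.8, and FOXA1 and FOXA2 differ most between the groups.

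The genes whose group means ran most like those of FOXM1 were looked for among all genes averaging 100 counts or more, by the root mean square difference of centred mean log2 CPM over the 7 groups. For FOXM1 they were NEURL1B (0.466, r = 0.947), THOC7 (0.574, r = 0.969) and CDKN3 (0.736, r = 0.871), at a distance that was large beside those of the other members. For FOXO3 they were BIRC6 (0.025), FER (0.033) and PIK3CA (0.045), for FOXO1 BCL10 (0.051), TANC1 (0.074) and TRAPPC6B (0.088), and for FOXO4 STK32A (0.160), RPS23 (0.166) and PAPLN (0.174). For FOXK1 they were TBC1D24 (0.079), ZNF213 (0.083) and OTX1 (0.085), and for FOXK2 TAF5L (0.036), SMARCC1 (0.042) and BICD2 (0.049). The nearest to FOXA1 were RAP1GAP (0.10), TMEM117 (0.110) and PDE1C (0.121), and to FOXA2 TUBB4B (0.084), MRPL57 (0.090) and KRT81 (0.097). FOXP1 was nearest to PTGFRN (0.057), ATP2A2 (0.061) and LYN (0.061), and FOXJ3 to LMTK2 (0.032). The 7 points share experiments and control libraries, so these values are a description with no test.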

How the data were processed

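Counts came from 24 polyA RNA-seq libraries of A549 cells. The authors trimmed the reads with Trim Galore, aligned them to hg38 with STAR and deposited whole-number counts per GENCODE V29 gene from HTSeq, not normalized. Versions and strand setting are not given in the sources used here. HTSeq left 7.88 to 11.2% of pairs out as ambiguous between genes. These totals were kept out of library sizes and tests.

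Identifiers were matched without version to GENCODE V44 on the same build (58207 of 58721). For each comparison the libraries of its groups alone entered a fit with edgeR 4.0.16 in R 4.3.3 (TMM, filterByExpr, quasi-likelihood test, Benjamini-Hochberg adjustment over all genes tested). A gene was called at an adjusted p under 0.05 with a fold change over 1.5. SE is the log2 fold change over the square root of F. The step was tested on simulated data. Differences of effects were contrasts over 4 groups. Tables and figures were made with Python 3.11.15, and promoter sequences are from RefSeq (GRCh38.p14).

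The members and gene lists were chosen with earlier results of these data known. Besides the members, text names the genes next to them, MYBL2, called genes of the forkhead family and, per list, up to 3 called genes with the largest change and a mean of at least 100 counts, or else the 2 most abundant. SOD2 had no matching identifier. A few genes that this rule would name are not reported here.

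Same-numbered libraries correlated in their deviations from the group means in the knockdowns (lowest 0.537, highest 0.905 over 11 pairs), and not with FDI6 (-0.286 to 0.159). The numbers come from the sample labels. No 2 libraries of a group agreed within sampling noise (chi-square per gene 3.57 to 62.8). Alternatives were RLE and upper-quartile scaling, DESeq2 1.42.0, no low-count filter, a minimum of 10 in each library, glmTreat, a correction for GC content and length, the replicate block, a joint fit of the 12 libraries of the single knockdowns, unscaled library sizes and leaving out each library. Leaving out replicate 4 of both groups was added after the data were seen.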

Additional observations from a re-analysis of the deposited data

Results flagged for a closer look

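FOXK1 stood at 100.5 CPM in siControl replicate 4 and FOXO4 at 7.97 CPM in siFOXM1 replicate 4, each far above the other 3 libraries of the group. FOXP1 was at 14.3 CPM in siControl replicate 2, far below the other 3. These were 3 of 30 sets of 4 libraries looked at. The sets share libraries, and how many would stand apart by chance was not tested. Without siControl replicate 4 the siMYBL2 change of FOXK1 was -0.40 (adjusted p = 0.0134, edgeR) in place of -0.53.

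The direct test between both single knockdowns found FOXM1 higher in siMYBL2 than in siFOXM1 (log2 difference 2.65) and FOXK1 (-0.55) and FOXK2 (-0.47) lower. The effect of siBoth was below that of siMYBL2 for FOXM1 (-2.64) and below that of siFOXM1 for FOXK1 (-0.66), across separate experiments. The effect of FDI6 was above that of siFOXM1 for FOXM1 (3.01), FOXO1 (0.68), FOXO3 (0.62) and FOXJ3 (0.56), also across experiments, whose control groups differed in FOXO1 and FOXO3. Each of these FOXM1 differences set cells with siRNA against FOXM1 beside cells without it, so its direction was built into the design.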

How the results depend on the processing

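Of 1340 member values under an alternative, 1185 kept their direction and side of the threshold, 43 newly passed it, 26 no longer did and 86 changed sign. FOXM1 fell past the threshold in every knockdown fit except glmTreat for siMYBL2 (adjusted p = 0.907). The test of a change beyond 1.5-fold, glmTreat, left 199, 14, 128 and 496 genes called (siMYBL2, siFOXM1, siBoth, FDI6) of 1269, 106, 1019 and 2098, and 0, 1, 1 and 0 members of 1, 1, 2 and 3. With the replicate block 1991, 401 and 1849 genes were called in the knockdowns, with the block and the GC and length correction 1986, 393, 1675 and, for FDI6, 1382. The block called 271 genes for the siBoth effect minus the siMYBL2 effect (27 without it) and 1488 for that minus the siFOXM1 effect (500 without it). It changed no call of a member other than those named in the report. DESeq2 called 163 genes with siFOXM1 and 65 for the siBoth effect minus the siMYBL2 effect, and no filter 1545 with siBoth. The GC and length correction called 2 members with siMYBL2, and upper-quartile scaling 1 with siBoth, where it moved the share of called genes that were lower from 56.5% to 40.6%.

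Leaving out 1 library gave 935 to 1456, 56 to 115, 587 to 1097 and 1705 to 2406 called genes in the 4 treatment comparisons and 7 to 28 for the siBoth effect minus the siMYBL2 effect. For siFOXM1 the count was 56 without siFOXM1 replicate 1, 69 without siFOXM1 replicate 3, 66 without siControl replicate 1 and 68 without siControl replicate 2. For siBoth it was 587 without siBoth replicate 2, 589 without siControl_Both replicate 2 and 643 without siControl_Both replicate 3. For the siBoth effect minus the siMYBL2 effect it was 7 to 14 without siMYBL2 replicate 1, siControl replicate 1, 2 or 3, siBoth replicate 1 or 2 or any siControl_Both replicate. Called members ranged from 1 to 2 with siMYBL2 (2 without siControl replicate 1, where FOXK1 was at -0.59) and from 2 to 3 with FDI6.

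Sign changes were all among values that missed the threshold. With the GC and length correction they were FOXK1 (-0.0043) and FOXP1 (0.0169, and 0.0210 with the block) for siFOXM1, FOXP1 for siBoth (0.0904, and 0.0850 with the block) and, for FDI6, FOXO4 (0.14, and 0.13 with the block) and FOXP1 (-0.29 and -0.29). With upper-quartile scaling they were FOXP1 for siBoth (0.0385) and FDI6 (-0.0152) and FOXO1 between siMYBL2 and siFOXM1 (0.0228). The replicate block turned FOXM1 for the siBoth effect minus the siFOXM1 effect (-0.0037). Without replicate 4 of both groups they were FOXJ3 for siMYBL2 (-0.0052), FOXP1 for siFOXM1 (0.0228) and FOXO1 between siMYBL2 and siFOXM1 (0.0563). Leaving out 1 library gave, for siMYBL2, FOXJ3 -0.0100 to 0.11. For siFOXM1 the range was FOXA2 -0.37 to 0.0097, FOXO4 -0.0559 to 0.34, FOXK1 -0.0474 to 0.16 and FOXP1 -0.11 to 0.0270. For siBoth the range was FOXA1 -0.0488 to 0.42 and FOXP1 -0.17 to 0.0619. It was FOXO4 -0.29 to 0.0846, FOXK1 -0.0232 to 0.13 and FOXP1 -0.0529 to 0.0751 for FDI6. It was FOXA1 -0.0510 to 0.16, FOXA2 -0.37 to 0.0134, FOXO1 -0.0759 to 0.0172 and FOXO3 -0.0045 to 0.11 for siMYBL2 against siFOXM1. It was FOXA1 -0.23 to 0.24, FOXA2 -0.16 to 0.27 and FOXO1 -0.0896 to 0.11 for the siBoth effect minus the siMYBL2 effect. It was FOXM1 -0.11 to 0.16, FOXA1 -0.18 to 0.28, FOXA2 -0.31 to 0.0618, FOXO1 -0.10 to 0.0725, FOXO4 -0.16 to 0.24 and FOXP1 -0.15 to 0.0729 for the siBoth effect minus the siFOXM1 effect. It was FOXK1 -0.11 to 0.11 and FOXP1 -0.0336 to 0.13 for the FDI6 effect minus the siFOXM1 effect. The cause was not tested.

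Precision was limited by 3 or 4 libraries a group, and for FOXO4 also by depth (24 to 43 counts in FDI6). Of 70 group levels, 62 moved by less than 1 SD with unscaled library sizes.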
